A study of Macaca mulatta with 24 samples.

Results

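A set of 10 genes of calcium/calmodulin signalling was followed in the nucleus accumbens core (NAcc) of rhesus macaques with different histories of voluntary ethanol drinking. They were the 4 CaMKII subunit genes CAMK2A, CAMK2B, CAMK2D and CAMK2G, the kinase gene CAMK4, the upstream kinase genes CAMKK1 and CAMKK2, and the calcineurin genes PPP3CA, PPP3CB and PPP3R1. They were chosen as a list of symbols, with earlier results of these data known, and all 10 were found among the 17208 gene rows. NAcc tissue came from 24 unrelated adult male macaques (Macaca mulatta), each sequenced as 1 polyA-selected library. They were 8 controls, 8 low or binge drinkers (LD*) and 8 heavy or very heavy drinkers (HD*). The labels name all LD* animals LD, so low and binge drinkers were not separated. The HD* animals comprised 4 labelled HD (heavy drinkers) and 4 labelled VHD (very heavy drinkers). Drinkers were first induced to take 4% (w/v) ethanol by scheduled feeding and then had ethanol and water side by side for 22 h a day over 12 months. Controls lived in the same rooms under the same procedures with water in both spouts, and received a 10% maltose dextrin solution to balance calories. No animal went through imposed abstinence before tissue was taken. Animals sorted themselves into drinking categories, so a category was not assigned by the experimenters. Daily intake ranged from 0.47 to 2.07 g/kg in LD* (median 1.82), from 2.74 to 3.09 g/kg in HD and from 3.09 to 3.78 g/kg in VHD animals.

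Calcium entering a neuron binds calmodulin, and the loaded calmodulin switches on both kinases and a phosphatase. CaMKII is a large ring of kinase subunits that keeps part of its activity after calcium has fallen and is known for its role in the strengthening of glutamate synapses. CaMKK1 and CaMKK2 phosphorylate other kinases, among them CaMKIV, a nuclear kinase that acts on CREB. Calcineurin opposes many of these events, with a catalytic A subunit (PPP3CA or PPP3CB) held to the calcium-binding B subunit (PPP3R1). In striatal projection neurons, the main cell type of the accumbens, calcineurin removes phosphate from DARPP-32, the product of PPP1R1B.

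The values were taken as TPM (a transcript share, that is a read count divided by gene length and scaled so that each animal adds up to the same total). The sums of the columns allow this reading but do not show that gene length was used. Levels were set side by side between genes, which holds as far as the values are TPM. It also needs the gene lengths used, which are not given in the sources used here, to be right. HD* animals came from cohorts 5 and 7a (4 each), together with 3 and 2 of the controls. LD* animals came from cohorts 4 (2 animals), 7a (3) and 7b (3), and the other 3 controls from cohort 7b. All 10 striatal projection neuron markers were detected in every animal, and PPP1R1B averaged 2497 TPM. A score for these markers (the mean over the 10 genes of log2(TPM + 1), centred over animals) lay between -1.08 and 0.98 in 23 animals and at -3.27 in control replicate 6 of cohort 7b. That animal had 304 TPM of PPP1R1B against 1051 TPM or more in every other animal, and the highest oligodendrocyte score of the series, 1.62. SLC17A7, a marker of cortical excitatory neurons, ranged from 0.866 to 722 TPM among animals. In bulk tissue, fewer cells of a type and less RNA per cell cannot be told apart. Differences of HD* and LD* animals from the controls are given below with and without control replicate 6. Other results that involve the controls include it unless its removal is named.

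The CaMKII genes CAMK2B and CAMK2A stood highest of the 10. Averaged over the 24 animals, CAMK2B reached 646 ± 231 TPM and CAMK2A 629 ± 170 TPM (mean ± SD), the 259th and 270th highest of all 17208 gene rows. The calcineurin genes PPP3CA, at 414 ± 210 TPM, and PPP3R1, at 337 ± 134 TPM, followed. CAMKK1 averaged 150.0 ± 42.8 TPM, PPP3CB 145 ± 38.3 TPM and CAMKK2 114 ± 46.1 TPM. CAMK2G, at 69.1 ± 30.3 TPM, CAMK4, at 47.1 ± 19.7 TPM, and CAMK2D, at 21.7 ± 15.9 TPM, were lowest. Most neighbours in this order changed places between animals. CAMK2B exceeded CAMK2A in 14 of 24 animals, with a mean log2 ratio of 0.00 against an SD between animals of 0.67. The only step larger than the spread between animals was the one from PPP3R1 down to CAMKK1, which PPP3R1 exceeded in 24 of 24 animals by 1.12 ± 0.25 (log2 ratio, SD).

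The genes differed in how far they varied. On the log2(TPM + 1) scale the SD over 24 animals was smallest for PPP3CB (0.42), CAMKK1 (0.51) and CAMK2A (0.53), and largest for CAMK2D (0.94) and PPP3CA (0.94). PPP3CA ran from 47.3 TPM in control replicate 6 to 817 TPM in control replicate 1, a ratio of 17.3 within the control group. Without control replicate 6 the controls still spanned 120 to 817 TPM, a ratio of 6.78. LD* animals spanned 224 to 641 TPM and HD* animals 185 to 729 TPM. The same control animal had the lowest level in the series of CAMK2A (140 TPM), CAMK2B (214 TPM), CAMK4 (7.96 TPM), CAMKK1 (44.3 TPM), CAMKK2 (22.5 TPM) and PPP3R1 (102 TPM), and the highest of CAMK2G (145 TPM).

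**Figure D1:**
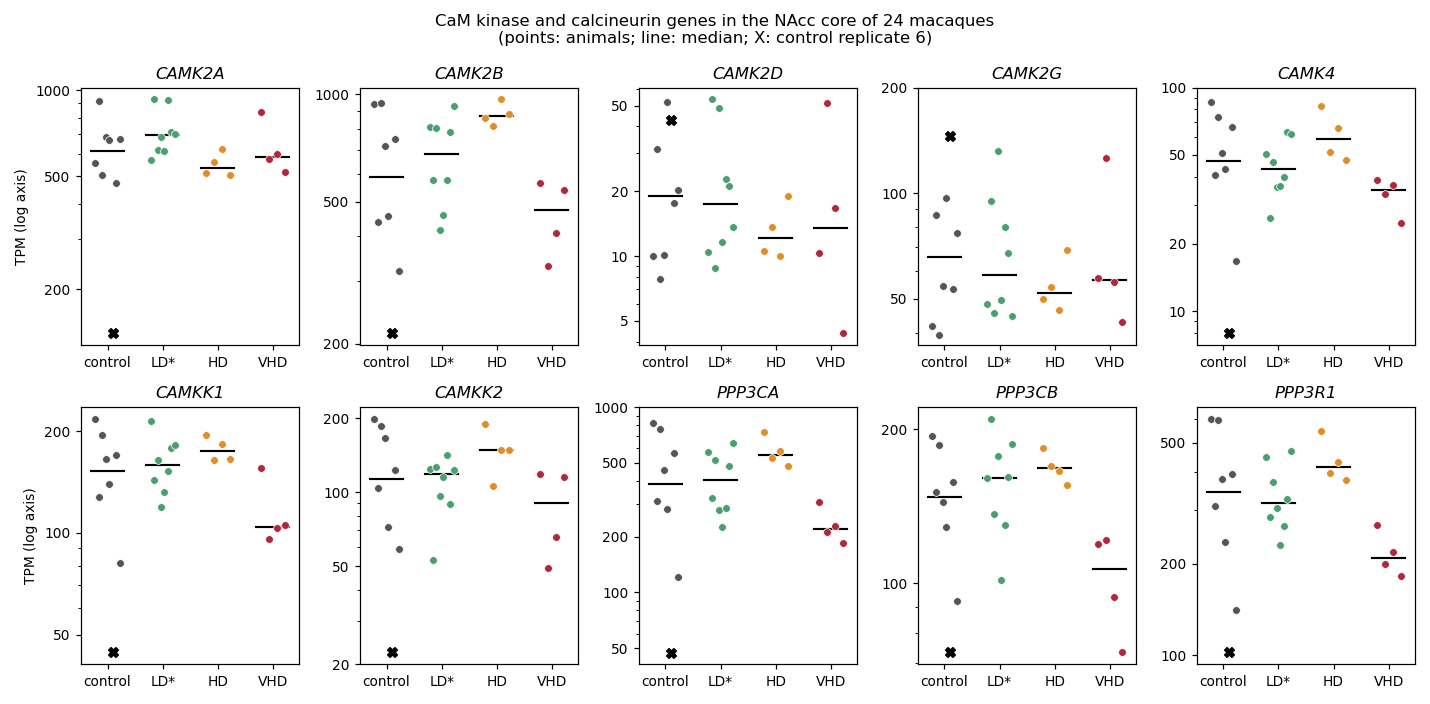
TPM (log axis) of each of the 10 genes in every animal by drinking category, with controls in grey, LD* in green, HD in orange and VHD in red; the line is the median and the X is control replicate 6. Controls and LD* animals overlapped with both HD and VHD animals. In 6 of the 10 genes every VHD animal lay below every HD animal, as in 17.9% of all genes tested.

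The first comparison asked whether these genes differed between heavy drinkers and controls. CAMK2A had a lowest, median and highest level of 140, 614 and 920 TPM in controls and 502, 567 and 838 TPM in HD* animals. CAMK2B had 214, 587 and 947 TPM in controls and 331, 690 and 969 TPM in HD* animals. PPP3CA had 47.3, 386 and 817 TPM in controls and 185, 394 and 729 TPM in HD* animals. In all 3 genes the groups overlapped across most of their range. None of the 10 genes passed an adjusted p of 0.05 (limma on log2(TPM + 1), 13637 genes tested, Benjamini-Hochberg), with smallest adjusted p = 0.714, against a background of 0% of all genes. At an unadjusted p under 0.05 none of the 10 passed either, where 5.68% of all genes did. The study's own DESeq2 test of this contrast, made on read counts, did call genes at an FDR under 0.05. PPP3CB, whose limma difference here was -0.05 (adjusted p = 0.921), is among the genes that the study lists as lower in HD* animals.

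Log2 differences of HD* minus control ran from -0.49 for CAMK2D (95% confidence interval -1.40 to 0.41) to 0.24 for CAMK2B (-0.35 to 0.82). PPP3CA had a difference of 0.23 with an interval from -0.70 to 1.16. The median over the 10 genes was 0.15, where the median over all genes was -0.12; 7 of the 10 differences were above 0. Without control replicate 6 the directions of 6 genes turned, 9 of the 10 differences were below 0, and their median was -0.13, with no gene past an adjusted p of 0.05 (smallest 0.784). Within cohorts 5 and 7a alone, where controls and HD* animals occurred together, the HD* minus control difference of PPP3CA was -0.22 and that of PPP3R1 -0.24. Rescaling by TMM moved the median of all genes in this contrast from -0.12 to 0.00 and turned the direction of PPP3CB to 0.08.

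LD* animals had CAMK2A levels of 570, 695 and 930 TPM (lowest, median and highest), overlapping with both other groups. The LD* minus control difference of CAMK2A, 0.45 ± 0.24 (log2, SE), was the largest of the 10 and did not pass (adjusted p = 1.00, limma), and it was 0.18 without control replicate 6. None of the 10 genes passed in LD* against controls, against 0% of all genes, and none at an unadjusted p under 0.05, against 2.84% of all genes. The differences ran from -0.06 for CAMK2G to 0.45, with a median of 0.18 against -0.03 over all genes. Without control replicate 6, directions turned in 6 genes and the median was 0.07, and with cohort as a term the median was 0.38.

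Between HD* and LD*, 0 of the 10 genes passed at an adjusted p of 0.05 (limma, smallest 0.937) or at an unadjusted p under 0.05, against 0% and 1.08% of all genes. Here 8 of 10 differences were below 0, with a median of -0.12 against -0.08 over all genes. LD* and HD* animals shared only cohort 7a, and with cohort as a term 9 of 10 differences were below 0 and their median was -0.46. The directions of CAMK2G (0.086), CAMK4 (-0.56) and CAMKK2 (-0.45) turned in that fit, and none of the 10 passed (limma, smallest adjusted p = 0.641). The largest was that of CAMK2D at -0.48 (95% confidence interval -1.38 to 0.43), in a gene whose LD* animals ran from 8.80 to 53.5 TPM and whose HD* animals ran from 4.39 to 51.5 TPM.

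**Figure D2:**
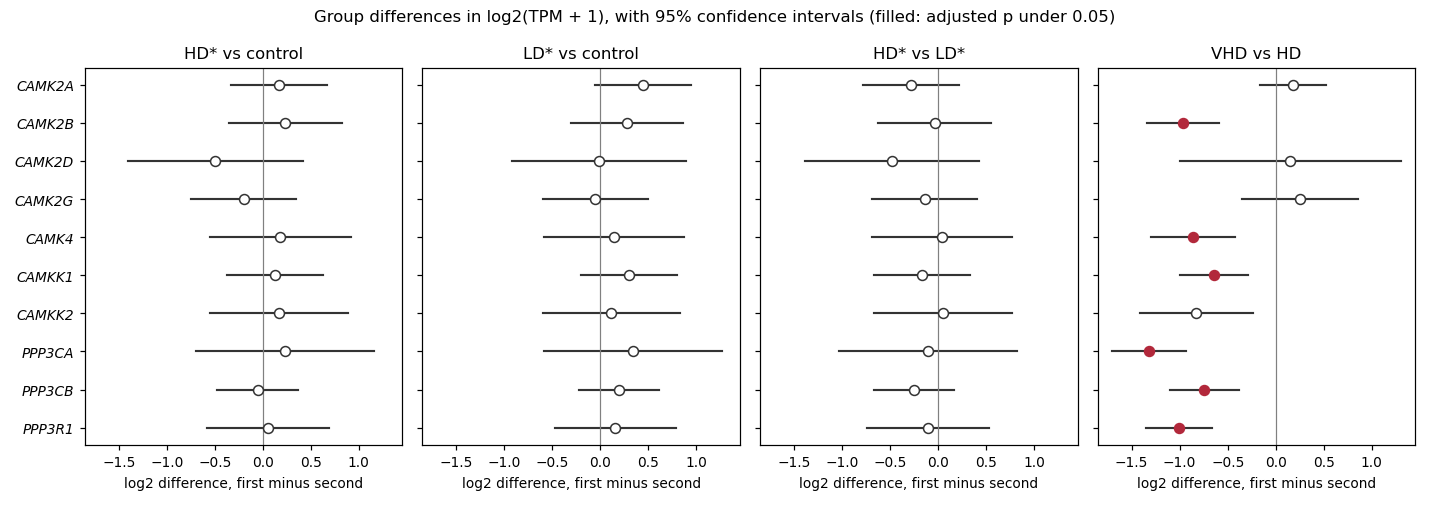
Differences in log2(TPM + 1) for the 10 genes in 4 comparisons, first group minus second, with 95% confidence intervals from limma; filled red points passed an adjusted p of 0.05. No point is filled in the comparisons of HD*, LD* and controls. In VHD against HD 6 are filled, all below 0, where 14.6% of all genes were called.

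Within the HD* group, the calcineurin genes and several kinase genes were lower in VHD than in HD animals. All 3 calcineurin genes, CAMK2B, CAMK4 and CAMKK1 fell, 6 of the 10 genes, against a background of 14.6% of all genes called in either direction and 11.4% called lower (limma within the 8 HD* animals). PPP3CA fell by 1.32 on the log2 scale, the largest difference of the 10, while CAMK2A, CAMK2D and CAMK2G had values that did not pass the test. Of all genes tested, 32.7% passed an unadjusted p under 0.05, as 7 of the 10 did. The median difference over the 10 genes was -0.79, beside -0.17 over all genes.

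PPP3CA, the main calcineurin catalytic subunit of the brain, stood at 729, 530, 579 and 480 TPM in the 4 HD animals. In the 4 VHD animals it stood at 308, 212, 228 and 185 TPM. Every VHD animal was below every HD animal, and the difference was -1.32 ± 0.18 (log2, SE, adjusted p = 0.0036, limma, n = 4 in each category). The regulatory subunit gene PPP3R1 stood at 545, 399, 433 and 377 TPM in HD and at 269, 199, 219 and 183 TPM in VHD animals. Again no VHD animal reached the lowest HD animal, with a difference of -1.01 ± 0.16 (adjusted p = 0.0049). PPP3CB, the other catalytic subunit gene of the brain, stood at 183, 169, 166 and 156 TPM in HD and at 119, 122, 94.0 and 73.3 TPM in VHD animals. Its difference was smaller, -0.74 ± 0.17 (adjusted p = 0.015), again with no overlap.

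CAMK2B, which encodes the CaMKII subunit that binds actin, stood at 859, 817, 969 and 882 TPM in HD and at 564, 331, 408 and 540 TPM in VHD animals. The difference was -0.97 ± 0.17 (adjusted p = 0.0070). CAMK2A, which encodes the other main CaMKII subunit of the forebrain, stood at 512, 559, 624 and 502 TPM in HD and at 838, 575, 595 and 517 TPM in VHD animals. These overlapped, and the difference of 0.18 had a 95% confidence interval from -0.17 to 0.53 (adjusted p = 0.455). CAMK2D and CAMK2G, the subunit genes that are also used outside the brain, had differences of 0.15 (-1.0 to 1.3) and 0.25 (-0.35 to 0.85). Both rested on a spread set by 1 VHD animal, HD* replicate 4, with 51.5 TPM of CAMK2D and 126 TPM of CAMK2G; without it these differences were -0.44 and -0.07, and neither passed.

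CAMK4 stood at 82.4, 51.8, 66.3 and 47.3 TPM in HD and at 38.7, 33.4, 36.6 and 24.8 TPM in VHD animals, a difference of -0.86 ± 0.20 (adjusted p = 0.018). CAMKK1 stood at 195, 165, 184 and 166 TPM in HD and at 156, 95.7, 103 and 106 TPM in VHD animals, with a difference of -0.64 ± 0.16 (adjusted p = 0.023). In CAMKK1 the gap between categories was narrow, from 156 TPM in the highest VHD animal to 165 TPM in the lowest HD animal. CAMKK2, its close relative, overlapped between categories, with 106 to 190 TPM in HD and 49.3 to 118 TPM in VHD animals. Its difference of -0.83 ± 0.27 missed the threshold (adjusted p = 0.060). The 6 genes that passed were also the ones with every VHD animal below every HD animal, a pattern held by 17.9% of all genes.

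For the 6 genes that passed, the VHD minus HD difference was below 0 in both cohorts that held these animals, with 2 of each category in each cohort. PPP3CA differed by -1.28 in cohort 5 and -1.36 in cohort 7a, PPP3R1 by -1.01 in both, and CAMK2B by -0.95 and -0.98. CAMK2D differed by 0.91 in cohort 5 and by -0.60 in cohort 7a. With cohort as a term the same 6 genes passed, where 2757 of all 13637 genes tested did. TMM rescaling moved the median of all genes in this contrast from -0.17 to 0.00, and changed the calls from 441 higher and 1556 lower to 1180 higher and 1416 lower. Of the 10 genes, 4 then passed, and CAMK2B (-0.76, adjusted p = 0.068) and CAMKK1 (-0.44, adjusted p = 0.134) no longer did.

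The 2 categories differed in cell type markers as well. Of the 10 striatal projection neuron markers, 9 were called lower in VHD animals (limma, median -1.12), with PPP1R1B at 3152 to 3797 TPM in HD and 1051 to 2590 TPM in VHD animals. Their summed level was 9266 to 10859 TPM in HD and 3518 to 6257 TPM in VHD animals, and none of the 10 was at 0 in any animal. Of 5 markers of all neurons, 2 were called lower (median -0.85) and the other 3 were also below 0. The 5 cortical excitatory markers were all below 0 (median -1.36), with none called. Among glial lists, 3 of 6 microglia, 1 of 6 astrocyte and 1 of 10 oligodendrocyte markers were called higher in VHD animals. None of these was called lower. Their medians were 0.52, 0.33 and -0.11, and 1, 0 and 6 markers of these lists were below 0. The 3 endothelial markers tested were all below 0 (median -0.32), with none called. The 10 most abundant genes of each animal took 3.79% to 3.96% of its TPM in HD and 4.16% to 5.92% in VHD animals. With the striatal score as a term, added after the data were seen, none of the 10 genes passed (limma, smallest adjusted p = 0.453). In that fit 5 of the 10 directions turned, among them CAMK2B, from -0.97 to 0.056, and CAMKK1, from -0.64 to 0.26, while the other 4 of the 6 genes stayed below 0, with PPP3CB at -0.82 and PPP3CA at -0.59. The score itself did not overlap between the categories, at 0.57 to 0.85 in HD and -0.74 to 0.01 in VHD animals. The part of these markers in the 6 differences cannot be told apart from that of drinking category with 8 animals.

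The test also took its spread from the 8 HD* animals alone. When the spread was taken from all 24 animals in 4 categories, the VHD minus HD differences stayed the same, 4 of the 10 genes had an unadjusted p under 0.05, where 33.8% of all genes did, and none passed (smallest adjusted p = 0.063, PPP3CB), with 0 calls among all genes. Controls and LD* animals overlapped with both categories. Of the controls, 3 had at least as much PPP3CA as the lowest HD animal and 3 had no more than the highest VHD animal; among LD* animals these were 4 and 3. Leaving out 1 HD* animal at a time left 3 to 7 of the 10 genes past the threshold, with 3 when HD* replicate 6, a VHD animal, was left out. Over all genes 476 to 4651 were then called, against 1997 with all 8 animals, and the 476 came without HD* replicate 6.

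Daily intake was then set against expression in the 16 drinkers, with drinking group as a term. No gene passed an adjusted p of 0.05 (limma, smallest of the 10 genes 0.498), against 0% of all genes. PPP3CB alone had an unadjusted p under 0.05 in this limma fit, where 8.12% of all genes did, with a slope of -0.49 ± 0.20 (log2 per g/kg, SE). Slopes were below 0 in 8 of 10 genes, with a median of -0.27 against -0.11 over all genes, and CAMKK2 had the highest at 0.23. With cohort as a term the median slope was -0.64, the slope of CAMKK2 -0.05 and that of PPP3CB -0.80, and PPP3CB and PPP3CA (-1.11) had an unadjusted p under 0.05, where 13.6% of all genes did. Without LD* replicate 2, 5 of the 10 genes had an unadjusted p under 0.05, where 16.6% of all genes did. None of the 10 passed after adjustment in either fit. The smallest p of Pearson's r among 20 correlations of single genes with intake inside LD* and HD* groups was that of CAMK4 in HD* animals. There r was -0.70 (exact permutation p = 0.053, adjusted 0.323, n = 8) and Spearman's rho -0.80 (exact permutation p = 0.020, adjusted 0.136). Without the 2 animals farthest from the median intake r was -0.92. PPP3CA and PPP3R1 had the same rho of -0.80 in HD* animals (exact permutation p = 0.020). Intakes of HD (2.74 to 3.09 g/kg) and VHD animals (3.09 to 3.78 g/kg) met only at 3.09 g/kg. Intake and the HD or VHD category can therefore not be told apart within HD* animals. The drinking group term of the slope does not separate HD from VHD animals either. None of the 20 passed after adjustment, and with 4 HD* animals per cohort no correlation within a cohort was made.

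Cohort was tested as a factor beside drinking group. None of the 10 genes passed (limma, smallest adjusted p = 0.540, PPP3CB), against 0% of all genes, and none had an unadjusted p under 0.05, against 8.36% of all genes. PPP3CB averaged 161 ± 30.9 TPM in cohort 5 (n = 7), 135 ± 39.7 TPM in cohort 7a (n = 9) and 127 ± 35.9 TPM in cohort 7b (n = 6), and stood at 160 and 210 TPM in the 2 animals of cohort 4. The interaction of the HD* difference with cohorts 5 and 7a passed for none of the 10 genes (smallest adjusted p = 1.00).

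The make-up of CaMKII was examined as the share of each subunit gene in the summed TPM of all 4. CAMK2A and CAMK2B together made up most of it in every animal, and their balance ran widely, with a CAMK2A share from 25.9% to 62.2% and a CAMK2B share from 29.3% to 63.2%. The summed level was 1276 ± 333 TPM in controls, 1483 ± 193 TPM in LD* and 1341 ± 220 TPM in HD* animals (mean ± SD, n = 8 each). The control mean includes control replicate 6 at 543 TPM, and the control median was 1383 TPM. CAMK2G made up 26.8% in control replicate 6 and 2.63% to 11.7% in the other animals, and CAMK2D 7.90% and 0.40% to 4.75%. In HD animals CAMK2A made up 36.6% ± 2.07 and in VHD animals 53.1% ± 4.47 (SD, n = 4 each), with no overlap between 38.7% and 46.8%. No share or ratio was tested between HD and VHD animals, and no background of such patterns was made. The share of CAMK2A also depends on CAMK2B. In TPM, CAMK2B was lower in VHD animals (-0.97, log2), while CAMK2A overlapped (0.18).

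Between controls, LD* and HD* animals no difference in a subunit ratio passed its test. The log2 ratios (CAMK2A to CAMK2B, CAMK2D to CAMK2G, PPP3CA to PPP3CB, and PPP3R1 to the sum of both catalytic genes) were compared in 3 pairs of groups by two-sided exact permutation over 12870 assignments. The smallest adjusted p of these 12 tests was 0.828. The lowest unadjusted p, 0.198, was that of CAMK2D to CAMK2G in HD* against LD* animals (-2.13 ± 0.59 against -1.76 ± 0.49, SD, exact permutation, n = 8 each). PPP3CA supplied 71.0% ± 9.59 of catalytic calcineurin TPM over the 24 animals, from 39.1% in control replicate 6 to 80.8%. PPP3R1 kept a ratio of 0.62 ± 0.07 to the catalytic sum, with 0.84 in control replicate 6 and 0.51 to 0.71 in all others. Without that animal, the HD* minus control difference of the last ratio was 0.01 in place of -0.05 on the log2 scale (exact permutation p = 0.869 and 0.584).

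**Figure D3:**
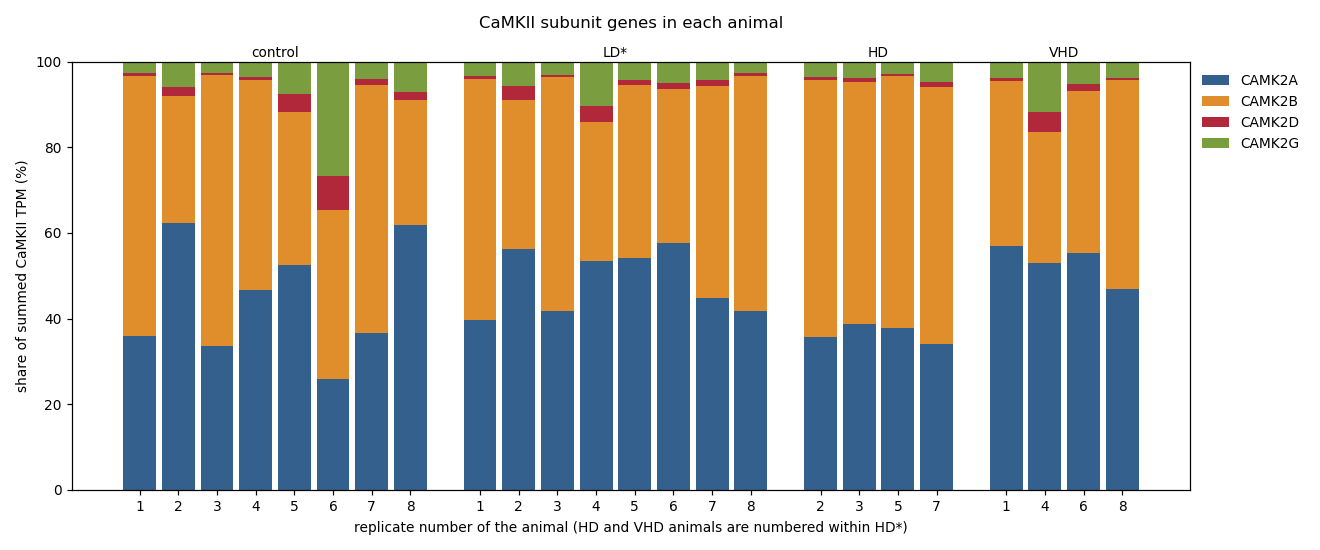
Share of each CaMKII subunit gene in the summed CaMKII TPM of each animal, as stacked bars grouped by drinking category. CAMK2A (blue) and CAMK2B (orange) trade places between animals, with CAMK2A at 34.1% to 38.7% in HD and 46.8% to 57.0% in VHD animals, and CAMK2G (green) reaches 26.8% in control replicate 6.

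Across animals, 7 of the 10 genes moved as a block. Of the 45 pairs, 35 were correlated at an adjusted p under 0.05 (100000 permutations), 23 positively and 12 negatively, and 34 passed by Spearman's rho. The calcineurin pair PPP3CA and PPP3R1 was tightest, with r = 0.98 and rho = 0.98 (permutation p = 1e-05 for both, the smallest that 100000 permutations can give, adjusted 3.5e-05, n = 24). Without the 2 animals farthest from the median of PPP3CA r was 0.98, and within cohorts 5, 7a and 7b it was 0.99, 0.99 and 0.98. CAMKK1 and PPP3CA had r = 0.96 and rho = 0.95, and CAMK2B and PPP3CA r = 0.94 and rho = 0.92, with the same p. The points share tissue, depth and cell make-up, which were not separated.

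CAMK2D and CAMK2G formed a second group, with r = 0.92 and rho = 0.90 (permutation p = 1e-05, n = 24), 0.93 without the 2 farthest animals, and 0.97, 0.80 and 0.94 within cohorts 5, 7a and 7b. CAMK2G was negatively related to CAMK2B (r = -0.76, rho = -0.72, permutation p = 6e-05), with -0.70 without the 2 farthest animals and -0.97, -0.38 and -0.82 within the 3 cohorts. The relation of CAMK2D to CAMK2B (r = -0.60, rho = -0.59, permutation p = 0.0017) was -0.91 in cohort 5, -0.72 in cohort 7b and -0.09 in cohort 7a, where it did not hold. CAMK2A followed neither group. Its largest correlation, r = 0.52 with CAMKK1, became -0.18 without the 2 farthest animals and rested on them.

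**Figure D4:**
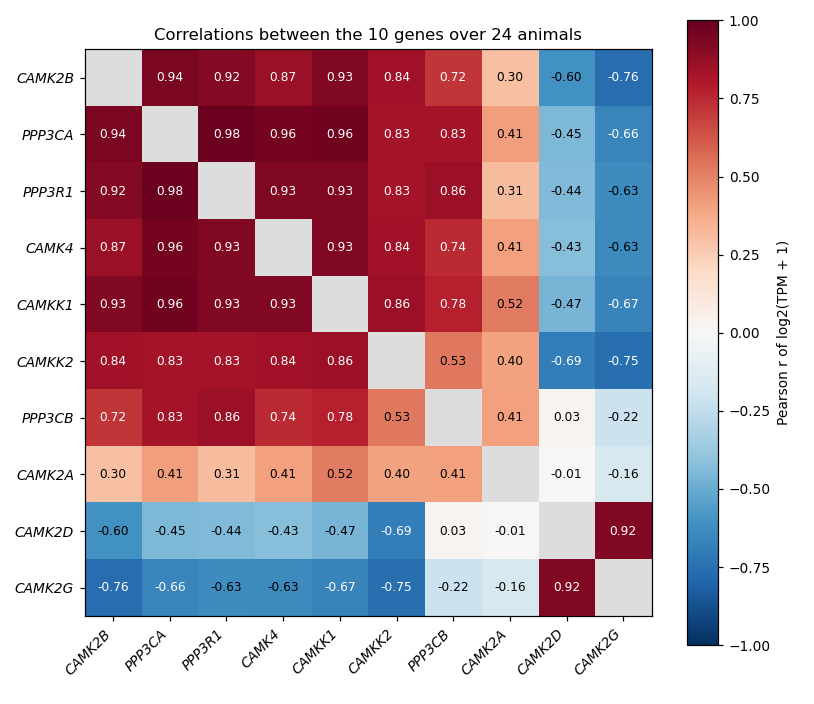
Pearson correlations of log2(TPM + 1) between the 10 genes over 24 animals, from blue (-1) through white to red (1), with the value in each cell. The 7 genes in the upper left corner correlate positively with each other, at 0.53 to 0.98, while CAMK2D and CAMK2G correlate at 0.92 with each other.

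The striatal projection neuron score tracked the larger group. CAMK2B had r = 0.95 and rho = 0.98 with the score (permutation p = 1e-05, adjusted 3.3e-05, n = 24), 0.98 without the 2 animals farthest from the median score, and 0.99, 0.99 and 0.98 within cohorts 5, 7a and 7b. PPP3CA had r = 0.96, with 0.94 without those 2 animals and 0.97 or more in each of the 3 cohorts. CAMKK1 had r = 0.96, CAMK4 0.92, PPP3R1 0.91, CAMKK2 0.88 and PPP3CB 0.70. CAMK2G (r = -0.76) and CAMK2D (r = -0.58) were lower where the score was higher, although within cohort 7a these values were -0.36 and -0.02. CAMK2A, at r = 0.51, turned to -0.38 without the 2 farthest animals, so its positive value rested on them. Of 20 relations with the striatal and oligodendrocyte scores, 12 passed an adjusted p of 0.05, and 9 did so by rho. With the oligodendrocyte score, CAMK2A (r = -0.62), CAMKK1 (-0.51) and CAMK2B (-0.48) passed, and without the 2 farthest animals they were -0.27, -0.28 and -0.34. CAMK2B had -0.38, 0.10 and -0.97 within cohorts 5, 7a and 7b, so that relation did not hold in cohort 7a.

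**Figure D5:**
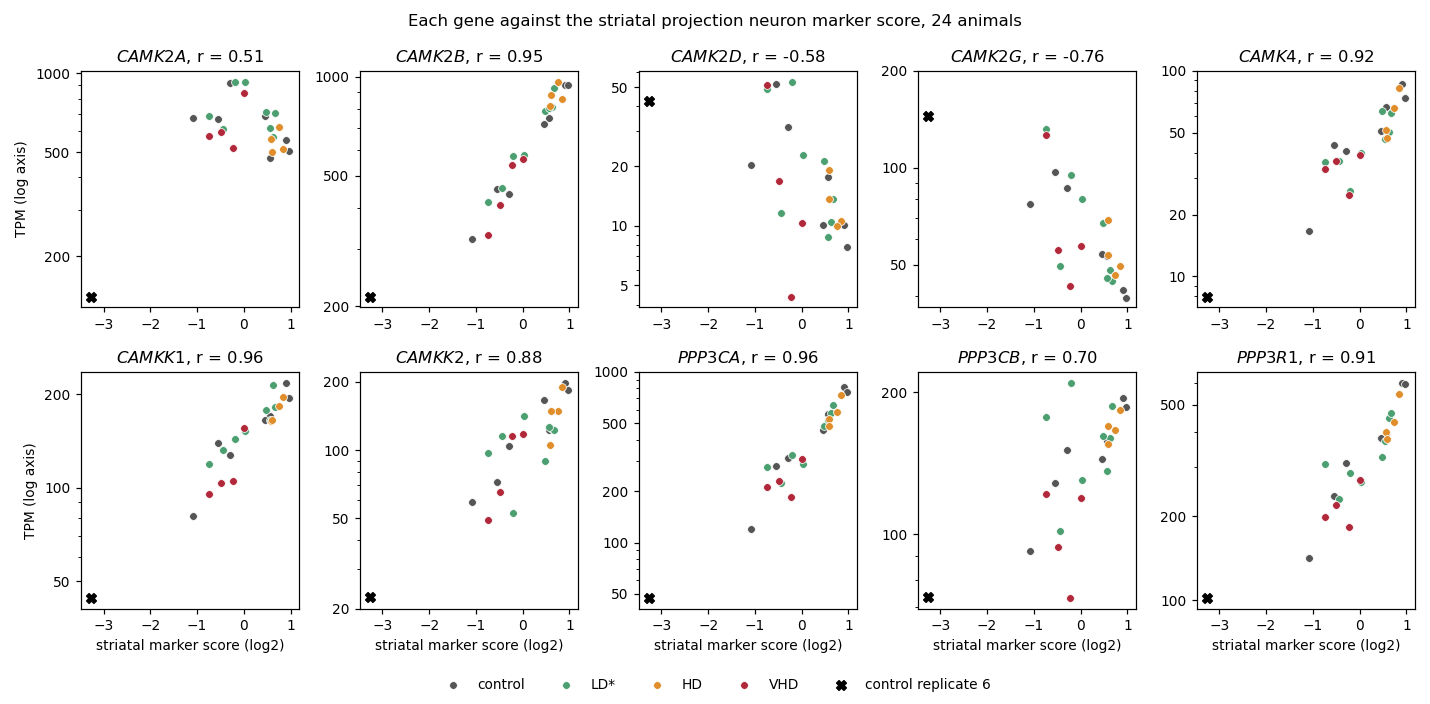
TPM (log axis) of each gene against the striatal projection neuron marker score (mean centred log2 of 10 markers) in 24 animals, coloured by category, with control replicate 6 as an X. CAMK2B, CAMK4, CAMKK1, CAMKK2 and the calcineurin genes rise with the score, CAMK2D and CAMK2G fall, and HD animals sit at 0.57 to 0.85 and VHD animals at -0.74 to 0.01 on the horizontal axis.

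The genes most like each member over the 24 animals, by Pearson's r among genes averaging 10 TPM or more, differed between the groups described above. PPP3CA was most like the potassium channel genes KCNAB1 and KCNA4 (r = 0.99 for both) and the splicing factor gene RBFOX1 (0.99). PPP3R1 was closest to C9orf41, PDP1 and FOXP1 (0.99, 0.99 and 0.98), and CAMK4 to ANO3, EPHX4 and KCNAB1 (0.97, 0.97 and 0.96). CAMKK1 was closest to ACTR3B, CA12 and KCNA1 (0.97 each), CAMKK2 to HPCA, PTPN7 and ARPP19 (0.94, 0.94 and 0.93), and PPP3CB to FAM49A, BAI3 and NCKAP1 (0.96 each). For CAMK2B these were NCDN, PHYHIP and ZFYVE28 (0.98 each). For CAMK2D they were GNG2, BTBD3 and KCNC2 (0.98, 0.95 and 0.93), and for CAMK2G they were TLE2, CA10 and TMEM151B (0.96, 0.95 and 0.95). CAMK2A was most like the dendritic gene DDN (0.90), ELK1 (0.89) and NEURL (0.88), and these 3 values fell to 0.59, 0.60 and 0.66 without control replicate 6.

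The rest of the pathway was read from a list of 46 genes, of which 45 were in the file and 44 tested. None of the 44 passed in HD* against controls, LD* against controls or HD* against LD* (limma). In VHD against HD, 16 of the 44 passed, 14 lower and 2 higher, beside 14.6% of all genes. The calmodulin genes CALM3 and CALM2, which encode the same protein, had means over the 24 animals of 2737 and 1392 TPM. CALM3 spanned 3096 to 3373 TPM in HD and 1889 to 2724 TPM in VHD animals, a fall by 0.56 on the log2 scale (adjusted p = 0.027). CALM2 (0.01) did not pass. NRGN, which holds calmodulin at rest in dendrites, fell by 0.95 (adjusted p = 0.048).

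Among other kinases, 3 of 8 passed, all lower in VHD animals: CAMK1G (-0.97, adjusted p = 0.022), DAPK1 (-0.93, 0.0081) and the kinase-like CAMKV (-0.79, 0.013). CAMK1, a substrate of the CaMKKs, had a difference of -0.12 that did not pass. None of the 3 tested CaMKII inhibitors and phosphatases passed, and CAMK2N1, a CaMKII inhibitor with 464 ± 111 TPM over the 24 animals, had 0.15 (adjusted p = 0.380). CAMK2N2, the other inhibitor gene, had the largest difference of this set at 0.51 (adjusted p = 0.077), with 47.0 to 53.7 TPM in HD and 56.8 to 106 TPM in VHD animals. Of 9 tested calcineurin subunits and regulators, 3 passed, all lower. They were FKBP1A (-1.06, 0.0085), which encodes the binding partner of the calcineurin inhibitor FK506, RCAN1 (-0.52, 0.032), a feedback inhibitor of calcineurin, and CABIN1 (-0.56, 0.030), another inhibitor. RCAN2 (-0.81, 0.062) did not pass, and neither did PPP3CC (-0.04), the third catalytic subunit gene, which was expressed at 11.3 TPM.

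Among 18 targets of these enzymes, 8 passed in VHD against HD. The 6 lower ones were MEF2D (-0.95, adjusted p = 0.0064), a transcription factor that calcineurin activates, and DNM1 (-1.08, 0.0072), the dynamin that calcineurin dephosphorylates in nerve endings. PPP1R1B (-1.03, 0.015), which is also among the striatal markers, the synaptic vesicle gene SYN1 (-0.74, 0.017) and the glutamate receptor genes GRIN2B (-0.94, 0.024) and GRIA1 (-1.0, 0.034) completed them. The 2 higher were HDAC5 (0.46, 0.034), a deacetylase gene whose product CaM kinases move out of the nucleus, and NFATC4 (0.67, 0.037), a calcineurin target with a mean of 1.47 TPM. The median of the 44 genes was -0.37, beside -0.17 over all genes. Of the 10 striatal markers, 9 were called lower in the same comparison, and correlations of the 44 genes with these markers were not tested.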

How the data were processed

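RNA-Seq of the NAcc core was measured in 24 animals, each 1 separate animal and library. The authors aligned reads to the MacaM assembly with STAR 2.5.2b, keeping unique alignments, counted them with HTSeq 0.6.1p1 and deposited TPM values, although the name of the deposited table speaks of DESeq2 normalized counts. Columns added up to 999998 to 1000000 over 17208 rows, so the table itself holds no depth. The study gives an average number of reads but none for each animal, so no counting error is given and precision rests on the number of animals. The sources describe strand and read pairing differently. Only unique alignments were counted, so reads shared between the CaMKII genes would be missing. How the deposited values were made from counts is not given in the sources used here. No column was without a sample (0).

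Groups, cohorts and intake came from the sample labels. The 13637 genes averaging 1 TPM or more were tested on log2(TPM + 1) with limma 3.58.1 in R 4.3.3 (empirical Bayes with a trend, Benjamini-Hochberg adjustment, threshold 0.05); differences of weakly expressed genes are understated on this scale. A model of 3 groups gave the group comparisons, the 8 HD* animals alone VHD against HD, the 16 drinkers the intake slope with group as a term, and all animals the cohort F-test. Ratios were tested by exact permutation, and correlations by exact permutation (n = 8) or 100000 permutations (n = 24), in scipy 1.17.1 (numpy 2.4.6, pandas 2.3.3, matplotlib 3.10.9, Python 3.11.15). The 10 genes and the pathway and marker lists were chosen with earlier results of these data known. Named genes were the 10, the 3 genes most correlated with each, a short set of calmodulin, kinase and calcineurin genes, and pathway genes called in any comparison. Alternatives were pseudocounts of 0.1 and 8, no filter and a filter of 10 TPM, TMM rescaling by an own script (trims of 30% for M-values and 5% for A-values), cohort or marker scores as terms, subsets of groups and cohorts, and each animal left out. The striatal score as a term, and the cohort and ratio tests without control replicate 6, were chosen after seeing the data. The rest of the transcriptome, blood ethanol and qPCR were not analysed here, and 1 gene of the pathway list is not reported here.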

Additional observations from a re-analysis of the deposited data

Results flagged for a closer look

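Single values far from the rest of their group were looked for in 60 groups of 4 to 8 animals (a gap test at the 95% level), and 4 stood apart, where chance alone gives about 1 in 20. CAMK2A stood at 838 TPM in HD* replicate 1, a VHD animal of cohort 5, where the other HD* animals had 502 to 624 TPM. The same animal had 156 TPM of CAMKK1, above the 95.7 to 106 TPM of the other VHD animals. CAMK2D at 51.5 TPM and CAMK2G at 126 TPM stood apart in HD* replicate 4, another VHD animal of cohort 5, where the other HD* animals had 4.39 to 19.1 TPM and 42.9 to 68.8 TPM. No difference between cohorts in the HD* minus control value passed for any of the 10 genes (limma, smallest adjusted p = 1.00).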

How the results depend on the processing

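In the comparisons of HD*, LD* and controls, the intake slope, the cohort test, the subunit ratios and the intake correlations, 0 results passed under every alternative run. In VHD against HD, 6 to 7 of the 10 genes passed with other pseudocounts or filters or with cohort or the oligodendrocyte score as a term, 4 after TMM rescaling, 0 with the spread of all 24 animals in 4 categories and 0 with the striatal score as a term. Over all genes, 1966 and 2040 were called with pseudocounts of 0.1 and 8, 1408 of 17208 with no filter and 2186 of 9197 with the 10 TPM filter. Cohort and the oligodendrocyte score as terms gave 2757 and 2257, and TMM rescaling 2596. The spread of all 24 animals and the striatal score each gave 0. With each animal left out, 3 to 7 passed, and 476 to 4651 of all genes against 1997 with all 8 animals; the 4651 came without HD* replicate 4 and the 476 without HD* replicate 6, and the count was 1094, 681, 607 and 723 without HD* replicates 2, 3, 5 and 7. Member pairs past the threshold went from 35 to 37, and marker relations from 12 to 15, after TMM rescaling. The depth of each animal is not given in the sources used here, so what it limits cannot be said for single values. No paired analysis was possible because the labels carry no replicate numbers that groups share.

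Directions turned as follows (log2, HD* minus control unless named), and the causes were not tested; of these differences only those of CAMK2B and CAMKK1 in VHD minus HD had been called. With cohort as a term CAMK2A was -0.0063, CAMK4 -0.074, CAMKK1 -0.037, CAMKK2 -0.029, PPP3CA -0.10 and PPP3R1 -0.15. In cohorts 5 and 7a alone CAMK2A was -0.059, CAMK2G 0.059, CAMK4 -0.15, CAMKK1 -0.081, CAMKK2 -0.17, PPP3CA -0.22 and PPP3R1 -0.24, and the ratio of PPP3R1 to the catalytic sum 0.0010. With the oligodendrocyte score CAMK2A was -0.011, CAMKK1 -0.012 and PPP3R1 -0.076. With the striatal score CAMK2B was -0.038, CAMK2G 0.0089, CAMK4 -0.15, CAMKK1 -0.11, CAMKK2 -0.15, PPP3CA -0.22 and PPP3R1 -0.24. After TMM rescaling PPP3CB was 0.079. Leaving out each animal, CAMK2A ran from -0.10 to 0.28, CAMK4 from -0.13 to 0.34, CAMKK1 from -0.087 to 0.24, CAMKK2 from -0.13 to 0.33, PPP3CA from -0.15 to 0.43, PPP3CB from -0.18 to 0.062 and PPP3R1 from -0.16 to 0.20.

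For LD* minus control, the oligodendrocyte score gave 0.27 for CAMK2D, 0.14 for CAMK2G, -0.032 for CAMK4, -0.096 for CAMKK2 and -0.012 for PPP3R1. The striatal score gave 0.22 for CAMK2D, 0.13 for CAMK2G, -0.16 for CAMK4, -0.17 for CAMKK2, -0.073 for PPP3CA and -0.11 for PPP3R1, and TMM rescaling gave 0.025 for CAMK2D. Leaving out each animal, CAMK2D ran from -0.22 to 0.18, CAMK2G from -0.20 to 0.10, CAMK4 from -0.16 to 0.31, CAMKK2 from -0.18 to 0.26, PPP3CA from -0.047 to 0.54 and PPP3R1 from -0.061 to 0.30. For VHD minus HD, the striatal score gave 0.056 for CAMK2B, -3.21 for CAMK2D, -1.28 for CAMK2G, 0.26 for CAMKK1 and 1.14 for CAMKK2, and leaving out each animal gave -0.44 to 0.66 for CAMK2D and -0.067 to 0.44 for CAMK2G. The correlation of CAMK2D with intake in HD* animals was 0.018 with a pseudocount of 8, and that of CAMK2D with PPP3CB was -0.31 after TMM rescaling in place of 0.027.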
